A study of Drosophila melanogaster with 16 samples.

Results

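The 9 genes described here encode zona pellucida (ZP) domain proteins of the epidermis and trachea of *Drosophila*: *piopio* (*pio*), *dumpy* (*dpy*), *miniature* (*m*), *dusky-like* (*dyl*), *nyobe* (*nyo*), *neyo* (*neo*), *morpheyus* (*mey*), *trynity* (*tyn*) and *cypher* (*cyr*). They were chosen by symbol, matched to the gene identifiers, from the 13754 genes measured, and all 9 were found. Poly(A) RNA was sequenced from 16 single embryos at stage 16, when the larval cuticle is being laid down, and every embryo made its own library. The study compared 5 *Asx0* embryos with 3 wild-type (wt) embryos, and 4 *SceI48A* embryos with 4 other wt embryos.

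*Asx0* is a null allele of *Asx*, which encodes the activating subunit of the Polycomb complex PR-DUB. With the deubiquitinase Calypso it removes monoubiquitin from histone H2A. The *Asx0* embryos were picked as progeny without GFP from parents that carried *w* and an *F40 F42D y+ Asx0* chromosome over the balancer *CyO twi-Gal4 UAS-GFP*. These mothers had a wild-type copy of *Asx*, so the embryos lacked the zygotic product. *SceI48A* is a form of *Sce*, the E3 ligase that sets this ubiquitin mark, with a point mutation that removes its activity. In the *SceI48A* embryos it came from a transgene on a *w* background with *cu sr Sce0* chromosomes, where *Sce0* is a null allele. A wild-type *Sce+* cassette in the parents was cut out of the germline with *nos-Gal4VP16* and *UAS-Flp*, so the embryos had neither maternal nor zygotic active Sce. The wt embryos were Oregon-R, a stock that differs from both mutant stocks in markers, balancers and insertions, so the mutation and the stock cannot be told apart for any difference below.

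ZP-domain proteins are secreted or membrane-anchored proteins that polymerize through their ZP domain and build the extracellular matrix on the apical face of epithelia. In the larval epidermis several of them occupy separate zones of each denticle, the hook of cuticle made by a single cell, and their genes are activated by the transcription factor Shavenbaby, an isoform made from the *ovo* locus. In the tracheal lumen and at the sites where muscles pull on the epidermis, Pio and the giant protein Dpy form elastic filaments that hold the apical membrane to the matrix.

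The deposited values are log2 normalized counts, one per embryo and gene, and each of the 2 comparisons forms a table that the authors normalized on its own. Values of genes with few reads were drawn together in these tables. The median SD within groups was 0.0454 for genes with a mean normalized count of 10 to 20 in the *Asx0* table and 0.0934 for those of 100 to 500. In the *SceI48A* table the corresponding medians were 0.0446 and 0.119. Differences of lowly expressed genes are therefore understated. Neither table gives read totals, and the depth of each library is therefore unknown. Genes with a mean of at least 10 were tested with limma and called at an adjusted p under 0.05, which left 10212 and 10369 genes in the *Asx0* and *SceI48A* comparisons and kept all 9 ZP-domain genes in both. Nothing in the labels says whether embryos of a group shared parents, and p-values measure the spread between single embryos. As whole embryos were sequenced, fewer cells that express a gene and less RNA per cell cannot be told apart.

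The 9 genes spanned a wide range of levels. Per kilobase of exon, the authors' mean normalized count over the 8 embryos of a table was highest for *dyl*, at 610 per kb in the *Asx0* table and 1700 per kb in the *SceI48A* table. *pio* followed at 450 per kb in the *Asx0* table and 395 per kb in the *SceI48A* table. On this scale, with the *Asx0* table given before the *SceI48A* table, *dpy* was at 226 and 289 per kb, *cyr* at 214 and 328 per kb, and *tyn* at 123 and 160 per kb. The remaining genes were low: *neo* lay at 38.5 and 21.8 per kb, *nyo* at 17.0 and 40.1 per kb, *mey* at 7.68 and 24.8 per kb, and *m* at 3.29 and 16.1 per kb. *m* had less RNA per kb than most genes, with 20.7% of all genes below it in the *Asx0* table, where 85.7% lay below *dyl*. These means carry no spread, so neighbours in this order may not differ.

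In *Asx0* embryos, 3 of the 9 genes were higher than in wt embryos (*dpy*, *neo* and *tyn*) and none was lower, where 5.19% of all tested genes were higher and 6.15% lower. The median difference over the 9 genes was 0.307 on the log2 scale, and over all tested genes it was -0.000188. In *SceI48A* embryos, 2 of the 9 genes were higher (*pio* and *dpy*) and none was lower, where 3.1% of all tested genes were higher and 4.39% lower. The median here was 0.0916 for the 9 genes and 0.000748 for all tested genes. At an unadjusted p under 0.05 from limma, 5 were higher and 0 lower in *Asx0* embryos (*pio* and *dyl* besides), and 2 were higher and 1 lower (*tyn*) in *SceI48A* embryos. At the same limit 13.1% of all tested genes were higher and 13.5% lower in *Asx0* embryos, and 12.1% higher and 12.6% lower in *SceI48A* embryos. *dpy* was called in both comparisons, which use different wt embryos. Every mutant embryo lay above every wt embryo for 2 of the 9 genes in the *Asx0* comparison (*dpy* and *neo*), where this held for 9.79% of all tested genes, and for 2 in the *SceI48A* comparison (*pio* and *dpy*), where it held for 8.89%. No member had all mutant embryos below all wt embryos, a pattern seen for 10.3% of all tested genes in the *Asx0* comparison and 9.1% in the *SceI48A* comparison. The 9 genes were picked with results of these data known, so these shares describe the list and are no test of it.

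**Figure D1:**
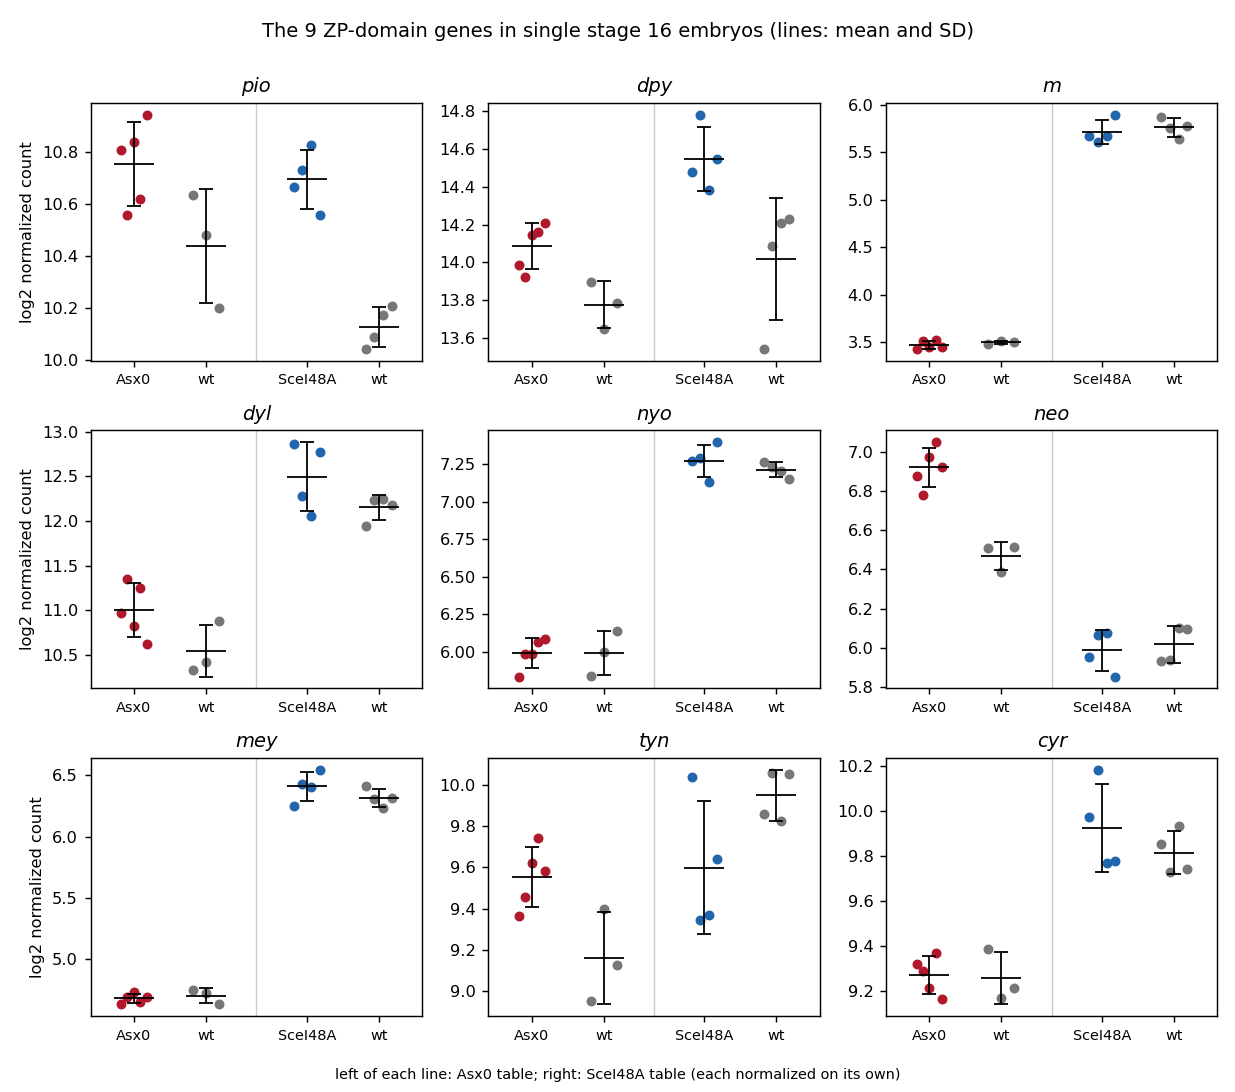
Log2 normalized count (vertical axis, own scale per panel) of the 9 ZP-domain genes in each embryo, with *Asx0* embryos (red, n = 5) left of their wt embryos (grey, n = 3) and *SceI48A* embryos (blue, n = 4) left of theirs (grey, n = 4); long lines are means and whiskers SD. All red points stand above the grey ones for *dpy* and *neo*, and all blue points above the grey ones for *pio* and *dpy*. Levels are not comparable across the vertical line, because the tables were normalized separately.

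The tracheal and attachment matrix genes *pio* and *dpy* were the ones called in *SceI48A* embryos. *pio* (chr2R:24581245-24597862, plus strand, dm6) encodes the ZP-domain protein that lines tracheal tubes and is cut by the protease Notopleural. Its log2 normalized counts were 10.66, 10.73, 10.83 and 10.56 in *SceI48A* embryos, against 10.04, 10.09, 10.17 and 10.21 in wt embryos. The groups were set apart, with the lowest mutant embryo 0.35 above the highest wt embryo. The difference was 0.57 (standard error 0.08), a 1.48-fold difference on the deposited scale, with an adjusted p of 0.0013 from limma. It was called under each of the 19 alternative settings, with adjusted p from limma of 0.000262 to 0.00925.

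In *Asx0* embryos, *pio* stood at 10.81, 10.56, 10.84, 10.62 and 10.94, against 10.63, 10.48 and 10.20 in wt embryos. The ranges overlapped, because wt replicate 1 lay above *Asx0* replicates 2 and 4. The difference of 0.31 (standard error 0.11) missed the threshold (adjusted p = 0.0875 from limma). Of the 8 fits that leave out an embryo it passed in 1, without wt replicate 1, at 0.41 (adjusted p = 0.0475 from limma). Without wt replicate 3 it was 0.20 (adjusted p = 0.263 from limma).

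*dpy* (chr2L:4477462-4614300, minus strand) encodes the largest of these proteins, and its exons cover 71.8 kb. Its log2 values were 13.99, 13.92, 14.15, 14.16 and 14.21 in *Asx0* embryos, against 13.90, 13.65 and 13.79 in wt embryos. The groups did not overlap, but *Asx0* replicate 2 lay only just above wt replicate 1. *dpy* was higher by 0.31 (standard error 0.08, adjusted p = 0.0298 from limma), a 1.24-fold difference on the deposited scale. The call was lost when any of 5 embryos was left out (*Asx0* replicates 3, 4 and 5 and wt replicates 2 and 3), with differences of 0.24 to 0.31 and adjusted p from limma of 0.0534 to 0.119.

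In *SceI48A* embryos, *dpy* stood at 14.48, 14.78, 14.38 and 14.55, against 13.54, 14.09, 14.21 and 14.23 in wt embryos. Again every mutant embryo was above every wt embryo, and wt replicate 1 lay far below the other wt embryos. The difference was 0.53 (standard error 0.14, adjusted p = 0.0438 from limma), a 1.44-fold difference. Without wt replicate 1 it was 0.37 and still passed (adjusted p = 0.0442 from limma), but without any of 6 other embryos it did not, with differences of 0.45 to 0.59 and adjusted p from limma of 0.0511 to 0.107. Those 6 were the 4 mutant embryos and wt replicates 2 and 3. With no filter on low genes it missed the threshold too (adjusted p = 0.054 from limma).

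Among the genes of the denticle matrix, *neo* showed the firmest difference in *Asx0* embryos. *neo* (chr3R:29819131-29825800, plus strand), a Shavenbaby target, had log2 values of 6.88, 6.78, 6.97, 7.05 and 6.92 in *Asx0* embryos, against 6.51, 6.39 and 6.51 in wt embryos. The lowest mutant embryo was 0.27 above the highest wt embryo. The difference was 0.45 (standard error 0.07, adjusted p = 0.0014 from limma), a 1.37-fold difference, and it was called under each of the 19 alternative settings (adjusted p of 0.000597 to 0.0137 from limma). In *SceI48A* embryos *neo* stood at 5.95, 6.07, 6.07 and 5.85, against 5.93, 5.94, 6.10 and 6.10 in wt embryos, and the ranges overlapped almost fully. The difference was -0.03, with a 95% confidence interval of -0.18 to 0.12. The mean normalized count of *neo* was low in this table, at 65.5. Shrinkage of low genes narrows both differences and intervals, so this interval cannot be set against the *Asx0* estimate. Whether the *Asx0* and *SceI48A* effects on *neo* differ was not tested, since each table was normalized on its own.

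*tyn* (chrX:140318-200663, plus strand), whose protein lies in denticles and in the tracheal and spiracular matrix, was the other gene called in *Asx0* embryos. Its log2 values were 9.37, 9.46, 9.62, 9.74 and 9.58 in *Asx0* embryos, against 8.95, 9.40 and 9.13 in wt embryos. *Asx0* replicate 1 and wt replicate 2 overlapped. The difference was 0.40 (standard error 0.11, adjusted p = 0.0344 from limma), a 1.32-fold difference. It was lost without *Asx0* replicate 3, 4 or 5 or wt replicate 1 or 3, with differences of 0.29 to 0.39 and adjusted p from limma of 0.064 to 0.125.

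*tyn* moved with a marker of sex among these embryos. The log2 level of the dosage compensation gene *msl-2* minus that of the female-determining gene *Sxl* was -3.69 in *Asx0* replicate 1 and -2.53, -2.40, -2.37 and -2.45 in the other *Asx0* embryos, against -3.94, -2.39 and -3.90 in wt embryos. Each group thus held embryos of both kinds, in unequal numbers. Among the embryos at -2.53 or above, *tyn* stood at 9.46 to 9.74 in 4 *Asx0* embryos and at 9.40 in wt replicate 2, and among those at -3.69 or below it stood at 9.37 in *Asx0* replicate 1 and at 8.95 and 9.13 in wt embryos. With the marker as a covariate the difference was 0.24 and did not pass (adjusted p = 0.107 from limma). With the same covariate *dpy* was at 0.32 (adjusted p = 0.0795 from limma).

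In *SceI48A* embryos *tyn* leaned the other way. Its log2 values were 10.04, 9.35, 9.37 and 9.64, against 9.86, 10.06, 9.83 and 10.06 in wt embryos. Mutant replicate 1 was among the wt values and the other 3 mutant embryos were below all of them. The difference of -0.35 (95% confidence interval -0.65 to -0.05) did not pass (adjusted p = 0.141 from limma). Without *SceI48A* replicate 1 it passed as a fall of *tyn*, at -0.50 (adjusted p = 0.0141 from limma), and whether it differs from the *Asx0* effect was not tested. In the annotation 17.9% of the exon bases of *tyn* lie in exons of other genes, mostly the antisense gene *CG17707*. Whether reads there were counted for the wrong gene was not tested. *CG17707* was at 0.05 in *Asx0* embryos (adjusted p = 0.837 from limma) and at -0.14 in *SceI48A* embryos (adjusted p = 0.45 from limma). *RhoGAP1A*, on the same strand as *tyn*, shares 23 bases. It was at -0.04 in *Asx0* embryos (adjusted p = 0.767 from limma) and at 0.29 in *SceI48A* embryos (adjusted p = 0.0583 from limma). The other 8 genes share no exon bases with another gene in the annotation.

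*dyl* (chr3L:4294004-4307718, minus strand), which shapes denticles and hairs, had the largest estimate of the 9 genes in *Asx0* embryos without passing the test. Its log2 values were 10.97, 11.35, 10.83, 11.25 and 10.63 in *Asx0* embryos, against 10.34, 10.43 and 10.88 in wt embryos. The groups overlapped through wt replicate 3, which stood above *Asx0* replicates 3 and 5. The difference was 0.46 (standard error 0.17, adjusted p = 0.104 from limma). It passed in 2 of the 8 fits that leave out an embryo, at 0.55 without *Asx0* replicate 5 (adjusted p = 0.046 from limma) and at 0.62 without wt replicate 3 (adjusted p = 0.0416 from limma). In *SceI48A* embryos *dyl* stood at 12.86, 12.28, 12.06 and 12.77, against 11.94, 12.24, 12.25 and 12.18 in wt embryos. The mutant embryos were spread more widely (SD 0.39, n = 4) than the wt embryos (SD 0.14, n = 4), and the difference was 0.34 (standard error 0.16, adjusted p = 0.206 from limma). It was 0.22 without *SceI48A* replicate 1 (adjusted p = 0.408 from limma), 0.18 with weights per embryo (adjusted p = 0.398 from limma) and 0.17 with the mean of cuticle protein genes as a covariate (adjusted p = 0.399 from limma).

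The 4 remaining genes lay close to wt in both comparisons. *cyr* (chrX:8121280-8135713, minus strand), a Shavenbaby target of the denticle matrix, averaged 9.27 ± 0.08 in *Asx0* embryos and 9.25 ± 0.12 in wt embryos (SD, n = 5 and 3). In the other comparison *cyr* averaged 9.93 ± 0.20 in *SceI48A* embryos and 9.81 ± 0.10 in wt embryos (SD, n = 4 each). The 95% confidence interval of the log2 difference was -0.14 to 0.17 for *Asx0* and -0.11 to 0.33 for *SceI48A*, so a change of *cyr* as large as that of *neo* in *Asx0* embryos lies outside both.

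*m* (chrX:11754273-11769508, plus strand) is needed for the shape of wing cells and of denticles. It averaged 3.47 ± 0.04 in *Asx0* embryos and 3.50 ± 0.01 in wt embryos (SD, n = 5 and 3), and 5.71 ± 0.13 in *SceI48A* embryos and 5.76 ± 0.10 in wt embryos (SD, n = 4 each). The adjusted p from limma was 0.632 and 0.711. With a mean normalized count of 11.2 in the *Asx0* table, *m* was only just above the limit for testing, and the shrinkage leaves little room for a difference there.

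*mey* (chr3R:31499235-31506992, plus strand) and *nyo* (chr3R:31543032-31566165, plus strand) are neighbours on chromosome 3R, with 36.0 kb and no protein-coding gene between them, and both are denticle matrix genes. *mey* averaged 4.68 ± 0.04 in *Asx0* embryos and 4.70 ± 0.06 in wt embryos (SD, n = 5 and 3), and 6.41 ± 0.12 in *SceI48A* embryos and 6.32 ± 0.07 in wt embryos (SD, n = 4 each). *nyo* averaged 5.99 ± 0.10 in *Asx0* embryos and 5.99 ± 0.15 in wt embryos (SD, n = 5 and 3), and 7.27 ± 0.11 in *SceI48A* embryos and 7.21 ± 0.05 in wt embryos (SD, n = 4 each). Neither passed in either comparison, with adjusted p from limma of 0.446 to 0.998. Their confidence intervals reached 0.24 at most, for *mey* in *SceI48A* embryos. In *Asx0* embryos the upper limits were 0.06 for *mey* and 0.17 for *nyo*. Their mean normalized counts in the *Asx0* table were low, at 26.0 and 64.6. Shrinkage of low genes narrows both differences and intervals, so these limits cannot be set against the estimates of *dpy*, *neo* and *tyn*.

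**Figure D2:**
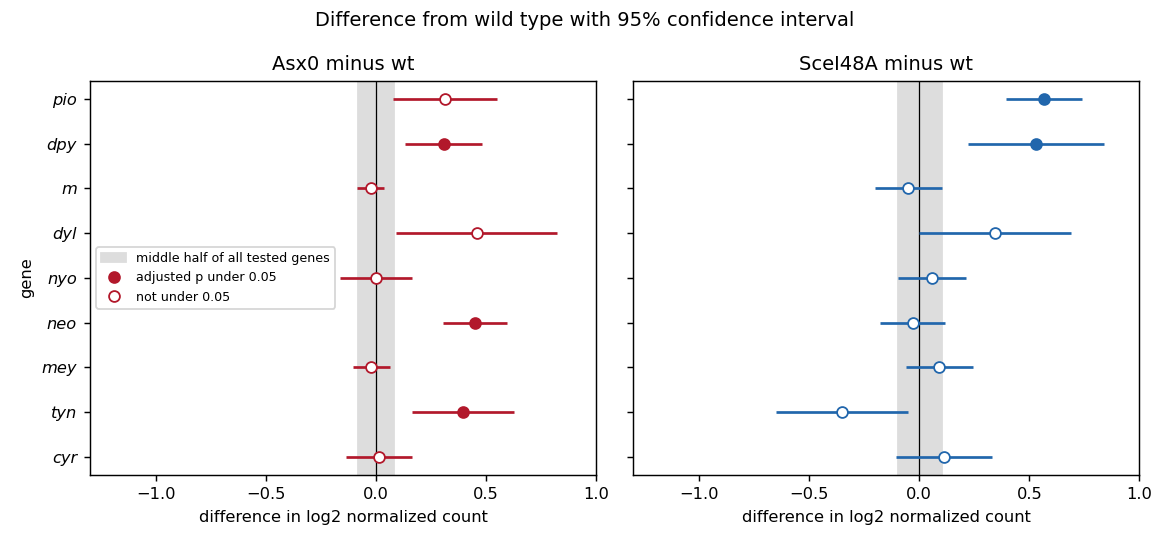
Difference in log2 normalized count (horizontal axis) between mutant and wt embryos for each of the 9 genes, *Asx0* on the left and *SceI48A* on the right, with 95% confidence intervals from limma; filled points passed an adjusted p of 0.05, and the grey band holds the middle 50% of all tested genes. *dpy*, *neo* and *tyn* are filled for *Asx0*, *pio* and *dpy* for *SceI48A*, and *m*, *nyo*, *mey* and *cyr* lie at or near the grey band in both panels.

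Other genes of these matrices were read from lists of related genes. Of 5 further ZP-domain genes (*dy*, *zye*, *pot*, *qsm* and *nompA*), *pot* (*papillote*, needed to attach epidermis and cuticle) was higher in both mutants. Its log2 values were 11.90, 11.76, 11.84, 11.74 and 11.94 in *Asx0* embryos, against 11.70, 11.40 and 11.51 in wt embryos. In the other table they were 12.28, 12.18, 11.87 and 11.81 in *SceI48A* embryos, against 11.37, 11.52, 11.80 and 11.62 in wt embryos. The groups did not overlap in either table, though *SceI48A* replicate 4 was only just above wt replicate 3. The difference was 0.30 (standard error 0.07, adjusted p = 0.0219 from limma) in *Asx0* embryos and 0.46 (standard error 0.12, adjusted p = 0.0406 from limma) in *SceI48A* embryos. The *Asx0* call was lost without *Asx0* replicate 3 or wt replicate 2 or 3 (differences of 0.23 to 0.30, adjusted p of 0.05 to 0.0926 from limma). The *SceI48A* call was lost without *SceI48A* replicate 1 or 2 or wt replicate 1, 2 or 4 (differences of 0.38 to 0.47, adjusted p of 0.0779 to 0.103 from limma). It was also lost with no filter on low genes, at 0.46 (adjusted p = 0.0503 from limma), and with the mean of cuticle protein genes as a covariate, at 0.43 (adjusted p = 0.0784 from limma). The denticle gene *zye* was at 0.33 and 0.20 in the *Asx0* and *SceI48A* comparisons and passed in neither (adjusted p = 0.155 and 0.229 from limma). Without wt replicate 1 *zye* was at 0.12 in *Asx0* embryos (adjusted p = 0.505 from limma), and with the *msl-2* minus *Sxl* covariate at 0.19 (adjusted p = 0.481 from limma). Of the 5 genes, limma gave 2 higher and 0 lower in *Asx0* embryos at an unadjusted p under 0.05 (13.1% and 13.5% of all tested genes). In *SceI48A* embryos it gave 1 higher and 1 lower (12.1% and 12.6% of all tested genes). The lower gene was *nompA*, named after its values were seen, at -0.29 (adjusted p = 0.122 from limma). Its mutant embryos were all below all wt embryos, as for 9.1% of all tested genes.

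The regulator of the denticle genes was not called. *ovo*, the locus of Shavenbaby, was at 0.16 in *Asx0* embryos (adjusted p = 0.372 from limma) and at 0.16 in *SceI48A* embryos (adjusted p = 0.555 from limma). Of its other denticle targets *sha*, *f*, *sn* and *ect*, *sha* (*shavenoid*, an actin organizer of the denticle) was higher in *Asx0* embryos. Its log2 values were 7.67, 7.77, 7.78, 7.74 and 7.73 in *Asx0* embryos, against 7.48, 7.40 and 7.60 in wt embryos. The difference was 0.24 (standard error 0.06, adjusted p = 0.0234 from limma). This call was lost without *Asx0* replicate 2 or 3 or wt replicate 1 or 2, with differences of 0.20 to 0.23 and adjusted p from limma of 0.0521 to 0.091. It was lost too with the *msl-2* minus *Sxl* covariate, at 0.26 (adjusted p = 0.0572 from limma). *sha* was at 0.01 in *SceI48A* embryos (adjusted p = 0.95 from limma). *f*, which encodes the actin bundler Forked, was at 0.31 and 0.15 and passed in neither comparison (adjusted p = 0.159 and 0.557 from limma). Of the 5 genes with *ovo*, limma gave 2 higher and 0 lower in *Asx0* embryos at an unadjusted p under 0.05 (13.1% and 13.5% of all tested genes). In *SceI48A* embryos it gave 0 higher and 1 lower (12.1% and 12.6% of all tested genes). The lower gene was *ect*, named after its values were seen, at -0.37 (adjusted p = 0.0923 from limma).

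Of 9 genes of the tracheal tube matrix and its enzymes, *mmy*, which encodes the enzyme that makes the precursor of chitin, was higher in *Asx0* embryos by 0.25 (adjusted p = 0.0489 from limma). It passed in 1 of the 8 fits that leave out an embryo, so this call is not a firm one (differences of 0.19 to 0.29 and adjusted p from limma of 0.0606 to 0.159 without *Asx0* replicate 1, 3, 4 or 5 or any wt replicate). With the *msl-2* minus *Sxl* covariate its adjusted p was 0.125 from limma. In *SceI48A* embryos *mmy* was at 0.30 with all mutant embryos above all wt embryos, and it did not pass (adjusted p = 0.0543 from limma), though it did without *SceI48A* replicate 4 (0.36, adjusted p = 0.0316 from limma), with weights per embryo (adjusted p = 0.017 from limma) and with the cuticle covariate (adjusted p = 0.0137 from limma). The list had 1 call in the *Asx0* comparison, where limma gave 3 of 9 higher at an unadjusted p under 0.05 (13.1% of all tested genes were). It had none in the *SceI48A* comparison, where limma gave 2 higher at that limit (12.1% of all tested genes were). All 9 estimates were positive there, with a median of 0.15, and 5204 of all 10369 tested genes were positive.

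Of 7 regulators of epidermis and trachea limma called none in *Asx0* embryos (1 was higher at an unadjusted p under 0.05, where 13.1% of all tested genes were), and *bnl*, the FGF ligand that guides tracheal branches, was higher in *SceI48A* embryos. Its log2 values there were 10.28, 10.07, 10.03 and 10.03, against 9.65, 9.84, 9.75 and 9.76 in wt embryos. The groups did not overlap and the difference was 0.36 (standard error 0.08, adjusted p = 0.0223 from limma). The call was lost without wt replicate 3 or 4, with adjusted p from limma of 0.0571 and 0.0562. *bnl* was the 1 call of 7 in the *SceI48A* comparison, where 3.1% of all tested genes were called higher. It was also the 1 gene of 7 with every mutant embryo above every wt embryo, as for 8.89% of all tested genes. At an unadjusted p under 0.05 limma gave 2 of 7 higher there, where 12.1% of all tested genes were. In *Asx0* embryos *bnl* was at 0.06 (adjusted p = 0.64 from limma).

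Genes of the sites where muscles attach to the epidermis, where Pio and Dpy also act, gave 3 calls of 7 in *Asx0* embryos, all higher, where 5.19% of all tested genes were called higher. limma called none in *SceI48A* embryos, where 3 of 7 were higher at an unadjusted p under 0.05, as were 12.1% of all tested genes. *Tsp*, which encodes the integrin ligand Thrombospondin, stood at 12.19, 12.22, 12.16, 12.20 and 12.22 in *Asx0* embryos, against 11.59, 11.77 and 11.80 in wt embryos. The *Asx0* embryos were almost alike and all were above wt by 0.36 or more. The difference of 0.48 (standard error 0.06) had an adjusted p of 0.000317 from limma and was called under each of the 19 alternative settings. In *SceI48A* embryos *Tsp* was at 0.06 (adjusted p = 0.618 from limma).

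The integrin subunit genes *if* and *mys* were higher in *Asx0* embryos by 0.19 (adjusted p = 0.0496 from limma) and 0.18 (adjusted p = 0.0444 from limma). *if* passed only in the leave-out fit without *Asx0* replicate 2, and *mys* only in the fits without *Asx0* replicate 2 and without wt replicate 3. In the other fits *if* was at 0.15 to 0.21 and *mys* at 0.16 to 0.19. With the *msl-2* minus *Sxl* covariate neither passed (adjusted p = 0.143 and 0.113 from limma). The *SceI48A* stock carries an allele of *sr*, the regulator of these attachment cells, so its list has a genetic difference of its own in that comparison.

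Markers of other cell types (neurons, glia, muscle, midgut and blood) were not called by limma in either comparison (1 of 8 was higher in *Asx0* embryos and 3 of 7 in *SceI48A* embryos at an unadjusted p under 0.05, where 13.1% and 12.1% of all tested genes were). Of 8 tested in *Asx0* embryos 5 were positive, with a median of 0.0563, and of 7 tested in *SceI48A* embryos 6 were positive, with a median of 0.147. The blood cell gene *Hml* was below the limit for testing in the *SceI48A* table, and the part of other cell types in the results above was not tested.

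**Figure D3:**
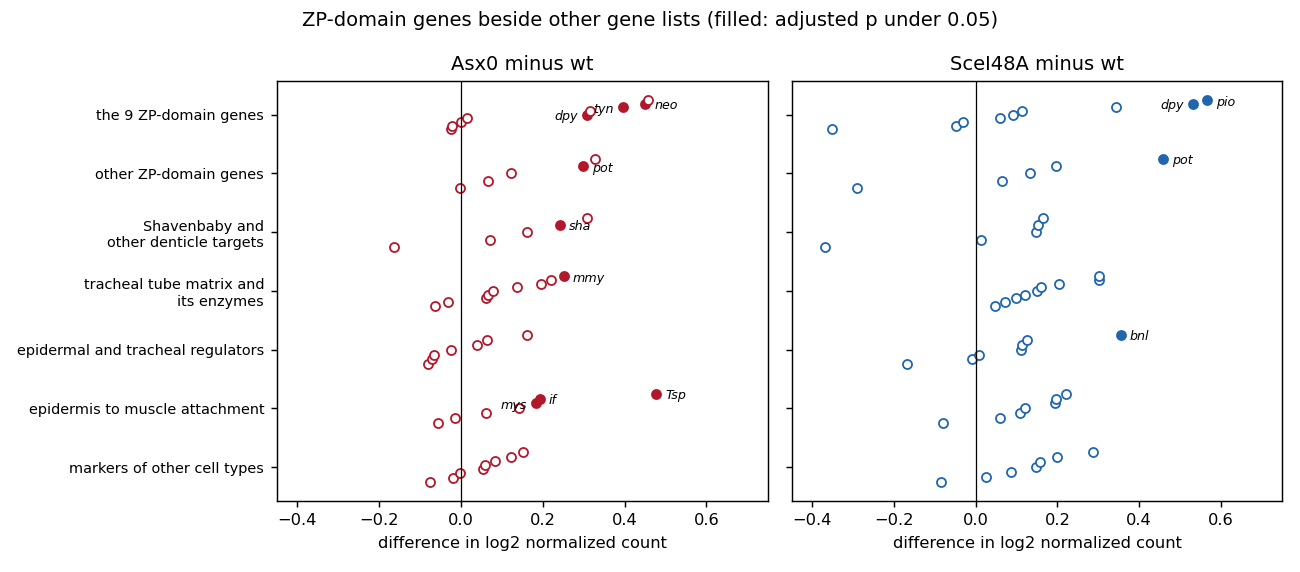
Difference in log2 normalized count between mutant and wt embryos (horizontal axis) for the 9 ZP-domain genes and 6 lists of related genes (rows), *Asx0* on the left and *SceI48A* on the right; each point is a gene, and filled, named points passed an adjusted p of 0.05 from limma. All filled points are to the right of 0, and the row of other cell types has none.

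The 9 genes did not vary as one group among embryos. Deviations from the group mean were correlated over the 8 embryos of each table, as a description, since the values of an embryo share its library and normalization. Of 36 gene pairs, 20 were positive in the *Asx0* table and 16 in the *SceI48A* table. Pairs that were positive in both tables included *dpy* with *neo* (Pearson's r of 0.817 in the *Asx0* table and 0.48 in the *SceI48A* table), *pio* with *dpy* (0.454 and 0.346) and *m* with *nyo* (0.444 and 0.554). *pio* ran against *dyl*, *nyo* and *m* in both tables, with r of -0.974 and -0.558 against *dyl*, -0.497 and -0.933 against *nyo*, and -0.647 and -0.697 against *m*. With *tyn* its r was also negative in both tables, though weaker, at -0.143 and -0.365. *pio* did not run against *neo* (0.0685 and 0.937), and its r with *mey* (0.612 and -0.429) and *cyr* (-0.0708 and 0.0651) changed sign between the tables.

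**Figure D4:**
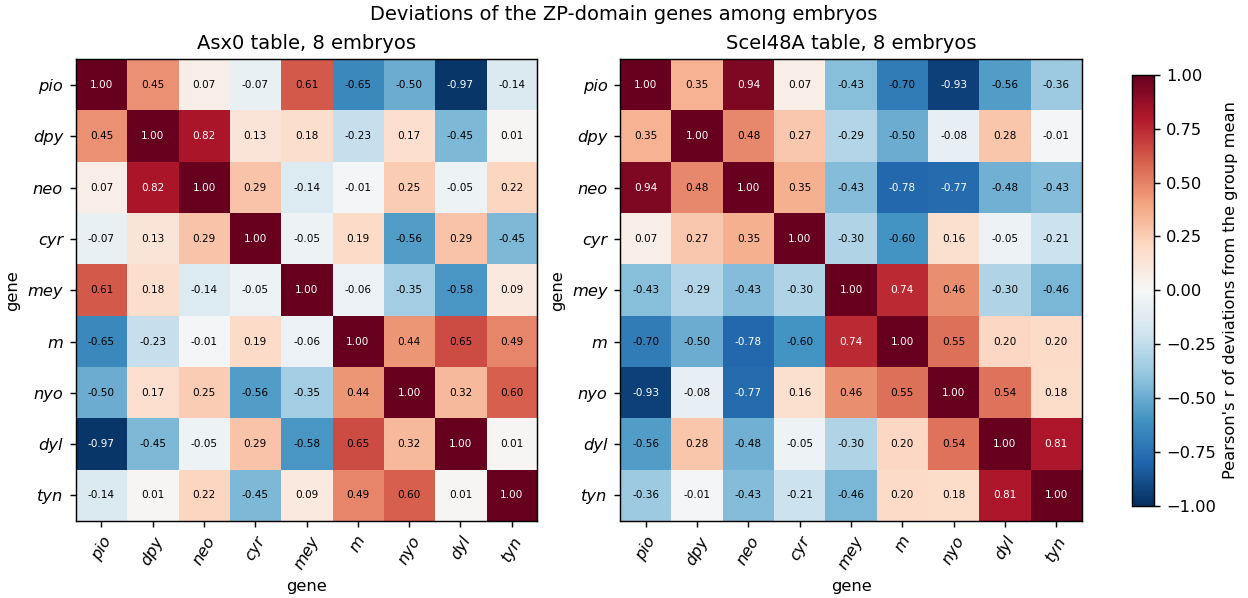
Pearson's r between the deviations of each pair of ZP-domain genes from their group means, over the 8 embryos of the *Asx0* table (left) and the 8 of the *SceI48A* table (right); rows and columns are genes, red is positive and blue negative. *dpy* is positive with *pio* and with *neo* in both panels, while *pio* with *neo* is at only 0.07 on the left. *pio* is blue against *m*, *nyo* and *dyl* in both.

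In the *Asx0* table, the mirrored levels of *pio* and *dyl* can be read from single embryos. *Asx0* replicates 2 and 4 had the lowest *pio* (10.56 and 10.62) and the highest *dyl* (11.35 and 11.25) of the 5 mutants, and wt replicate 3 had the lowest *pio* (10.20) and the highest *dyl* (10.88) of the 3 wt embryos. These 3 embryos had *ect*, a secreted ectodermal protein gene named after its values were seen, at 12.03, 11.98 and 12.36, while it stood between 10.16 and 11.47 in the other 5. The mean log2 level of 88 cuticle protein genes was also lowest in them within each group, at 9.31, 9.35 and 9.33, against 9.43 to 9.56 in the others. With that mean as a covariate, *pio* and *dyl* were both called in *Asx0* embryos, *pio* at 0.35 (adjusted p = 0.0162 from limma) and *dyl* at 0.40 (adjusted p = 0.0245 from limma), so that 5 of the 9 genes were higher. In *SceI48A* embryos the same covariate left *pio* higher at 0.59 (adjusted p = 0.00194 from limma), took *dpy* below the threshold at 0.44 (adjusted p = 0.0865 from limma) and made *tyn* lower at -0.48 (adjusted p = 0.0339 from limma). The mirror of *pio* and *dyl* did not hold throughout the *SceI48A* table. *SceI48A* replicate 3 had the highest *pio* (10.83) and the lowest *dyl* (12.06) of the mutants. wt replicate 1 of that table had both the lowest *pio* (10.04) and the lowest *dyl* (11.945) of its group.

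The genes whose deviations ran most like the mean deviation of the 9 genes, out of 10060 compared, were *fra* (r of 0.922 in the *Asx0* table and 0.916 in the *SceI48A* table), *Pat1* (0.905 and 0.888), *CG15628* (0.883 and 0.883), *lola* (0.864 and 0.868) and *ed* (0.926 and 0.856). Of these *CG15628* was called in *Asx0* embryos, at 0.39 (adjusted p = 0.00995 from limma), and was at 0.12 in *SceI48A* embryos (adjusted p = 0.332 from limma). The other 4 passed in neither comparison. All of these genes were picked by the r values given, as the highest of 10060 over the 8 embryos of each table. Their r is therefore high through the ranking itself. The mean deviation also describes the 9 genes poorly, as their pairs had a median r of 0.0386 in the *Asx0* table and -0.0679 in the *SceI48A* table. Whether any of the picked genes varies with the 9 genes was not tested.

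The wt embryos of the 2 comparisons differed in several of these genes. *m* stood at 5.87, 5.76, 5.63 and 5.78 in the wt embryos of the *SceI48A* table, against 3.48, 3.51 and 3.50 in those of the *Asx0* table. As the tables were normalized separately, the difference of each gene is given less the all-gene median difference of 0.426. On that scale *m* was higher by 1.84 in the wt embryos of the *SceI48A* table, *mey* by 1.19, *dyl* by 1.18, *nyo* by 0.80, *tyn* by 0.37 and *cyr* by 0.13. *neo* was at -0.88, *pio* at -0.74 and *dpy* at -0.19. In size, the value of *neo* exceeded its called difference of 0.45 in *Asx0* embryos. That of *pio* exceeded its called difference of 0.57 in *SceI48A* embryos. Of 10069 genes, 5.28% lay beyond 1 in either direction and 1.66% were higher by more than 1, and the middle 50% lay between -0.18 and 0.15. The wt ranges of the 2 tables overlapped for *dpy* and *cyr* among the 9 genes, after the median was taken off. *ovo*, at 1.32, *f*, at 0.78, and *ect*, at 2.38, were higher in the same wt embryos. These values carry no test, and the embryos and the normalization of their table cannot be told apart here.

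**Figure D5:**
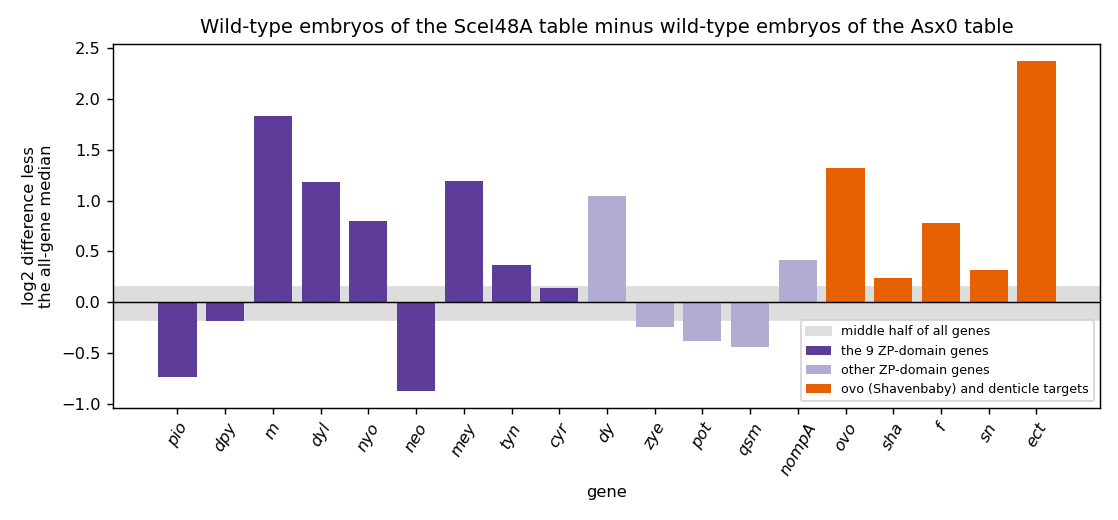
Mean log2 normalized count in the 4 wt embryos of the *SceI48A* table minus that in the 3 wt embryos of the *Asx0* table, less the median of all genes (vertical axis), for the 9 ZP-domain genes, 5 other ZP-domain genes and *ovo* with its denticle targets (horizontal axis); the grey band holds the middle 50% of 10069 genes. *m*, *mey*, *dyl*, *nyo*, *dy*, *ovo*, *f* and *ect* stand well above the band, and *pio* and *neo* well below it.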

How the data were processed

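The authors sequenced poly(A) RNA of single embryos in paired-end mode, quantified the reads per transcript with Salmon and per gene with tximeta, and used DESeq2. They kept embryos that looked alike in stage under the microscope and in a principal component analysis. dm6 is the build in the submitters' processing notes. The authors deposited, per table, log2 normalized counts of each embryo, whose shrinkage is not given in the sources used here, and a mean normalized count per gene over all embryos (a signal). The deposited fold changes and p-values were not used. Gene symbols came from gene identifiers, with 32 left without one, and positions from annotation in dm6 coordinates.

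Each table was fitted separately with limma 3.58.1 (R 4.3.3), with trended empirical Bayes variances, two-sided, on genes with a mean of at least 10. P-values were adjusted over all tested genes with Benjamini-Hochberg, and adjusted p under 0.05 was called. The step was tested on simulated data. Alternatives were no filter, a mean of at least 50, pseudocounts of 1 and 5, quantile and median-of-ratios scaling, robust variances, weights per embryo, covariates from cuticle genes and from *msl-2* minus *Sxl*, the replicate number as a block, and each embryo left out. The 9 genes and all lists were chosen with earlier results of these data known. Named are the 9 genes, called genes of each other list with up to 2 uncalled ones, and the 5 genes most like the mean deviation of the 9; others are said to be named after their values were seen. No set test was run. Protein and promoter sequences were not used here.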

Additional observations from a re-analysis of the deposited data

How the results depend on the processing

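*neo* and *Tsp* in *Asx0* embryos and *pio* in *SceI48A* embryos were called under all 19 alternatives, and *dpy*, *tyn* and *pot* kept their direction under all of them in the comparisons where they were called. The depth is unknown, and shrinkage limits what *m*, *mey* and *nyo* can show, and *neo* in the *SceI48A* comparison. The number of the 9 genes higher in *Asx0* embryos was 3, and it was 5 with the cuticle covariate, 1 with the *msl-2* minus *Sxl* covariate, 1 with the replicate block, and 1 to 3 when each embryo was left out. The number higher in *SceI48A* embryos was 2, and it was 1 without a filter, 1 with the cuticle covariate, and 1 to 2 when each embryo was left out. The number lower in *SceI48A* embryos was 0, and it was 1 with weights per embryo (*tyn* at -0.48), 1 with the cuticle covariate, and 0 to 1 when each embryo was left out. The number lower in *Asx0* embryos was 0 in all. The cause of these shifts was not tested.

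Over all tested genes, the *Asx0* counts of 530 higher and 628 lower were 249 and 405 with the replicate block, and 314 were higher when *msl-2* minus *Sxl* was the covariate. The *SceI48A* counts of 321 higher and 455 lower were 152 and 294 with the block, 522 were higher with weights per embryo, and they fell to 135 and 255 without wt replicate 2. Over all tested genes, the deviations of same-numbered embryos had correlations of -0.089 to 0.156 in the *Asx0* table and -0.13 to 0.107 in the *SceI48A* table. The labels do not say what the number stands for. Whether same-numbered embryos share a batch that affects part of the genes was not tested. With the replicate block *dpy* and *tyn* in *Asx0* embryos were at 0.24 (adjusted p = 0.0785 from limma) and 0.32 (adjusted p = 0.0974 from limma). The block also took *sha*, *mmy*, *if* and *mys* in *Asx0* embryos (adjusted p of 0.115, 0.141, 0.166 and 0.121 from limma) and *bnl* and *pot* in *SceI48A* embryos (0.0708 and 0.0935) out of the calls. With no filter, quantile scaling, weights or the cuticle covariate, *mmy*, *if* and *mys* in *Asx0* embryos each missed it in some fits (adjusted p of 0.0516 to 0.0652 from limma). Small uncalled differences changed sign. *nyo* in *Asx0* embryos was at -0.0185 with weights per embryo, -0.0068 with the cuticle covariate, -0.0552 with the *msl-2*/*Sxl* covariate, -0.0546 with the replicate block, and between -0.0760 and 0.0732 when each embryo was left out. *cyr* and *mey* in *Asx0* embryos were between -0.0289 and 0.0804 and between -0.0557 and 0.0020 when each was left out, and *neo* in *SceI48A* embryos between -0.0598 and 0.0141. In *SceI48A* embryos *sha* was at -0.0469 with the cuticle covariate, -0.0201 with weights, and between -0.0418 and 0.118 when each was left out, *f* at -0.0072 and *ovo* at -0.0014 with the cuticle covariate, and *Tsp* at -0.0067 with quantile scaling. *bnl* in *Asx0* embryos was at -0.0135 with the replicate block and between -0.00096 and 0.119 when each was left out.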
